A study of Mus musculus with 30 samples.

Results

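The Krüppel-like factors are zinc-finger transcription factors, and 9 of their genes were followed in mouse hypothalamic cells given cannabidiol (CBD). The 9 members, Klf2, Klf3, Klf4, Klf5, Klf6, Klf7, Klf9, Klf10 and Klf13, were taken by gene symbol from 56941 genes in the count tables, 17 of which carry a Klf symbol. They were chosen by family name with earlier results of these libraries known, among them the differences between CBD and vehicle and between 6 and 24 h, and no threshold for the choice was recorded. The tests on the members are therefore given as a description of these libraries and not as independent support for the choice.

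The cells were mHypoA-2/12, an immortalized commercial line derived from adult mouse hypothalamus, and no other line was used. The cells were grown with serum before treatment and treated in DMEM with GlutaMAX, and whether serum was present during treatment is not given in the sources used here. The vehicle group received 0.1% DMSO, and the treated groups received CBD at 0.325, 0.75, 1.5 or 3 µM, for 6 or 24 h. Each of the 10 groups had 3 libraries, 30 in all, prepared by 3′ mRNA-Seq, in which reads start near the poly(A) tail. The labels do not say that the libraries of a group came from separate cultures, so p-values measure only the spread between these libraries, which may be technical. Replicate numbers follow the order of deposit and only name a library.

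Krüppel-like factors bind GC-rich and CACCC motifs in DNA through C2H2 zinc fingers at the carboxyl end, and differ in the domains that recruit activators or repressors. Klf2, Klf4, Klf5, Klf6 and Klf7 are usually classed with the activators, Klf3 recruits the CtBP corepressors, and Klf9, Klf10 and Klf13 recruit the Sin3 corepressor. In neurons the family is known for its part in axon growth, which Klf6 and Klf7 favour and Klf4 and Klf9 restrain. Several members, Klf2, Klf4, Klf6 and Klf10 among them, are also rapidly induced by serum and growth factors.

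Promoter sequence from RefSeq (build GRCm38.p6) was matched for 7 of the 9 members. It was not matched for Klf5 and Klf10. The window ran from 250 bases before the annotated start site to 50 after it. Its GC content lay between 58.3% in Klf7 and 76.7% in Klf3, against a median of 52.7% over 32817 promoters. In all, 9 motifs were searched, and the 3 promoters below are shown for genes described further on. They were chosen after the values were seen, and the promoter of Klf3, described as well, held neither of the elements shown. The E-box CACGTG was found in Klf4 and Klf6 and in none of the other 5 matched members, and 7.15% of all promoters held it. The AP-1 site TGANTCA was found in Klf9 alone among the 7, against 7.81% of all promoters. Both strands were searched. The 250 bases before the start site are given 5′ to 3′ on the strand of the gene, with the E-box (Klf6 and Klf4) or the AP-1 site (Klf9) in capitals.
Klf6, chr13:5861239-5861488, plus strand: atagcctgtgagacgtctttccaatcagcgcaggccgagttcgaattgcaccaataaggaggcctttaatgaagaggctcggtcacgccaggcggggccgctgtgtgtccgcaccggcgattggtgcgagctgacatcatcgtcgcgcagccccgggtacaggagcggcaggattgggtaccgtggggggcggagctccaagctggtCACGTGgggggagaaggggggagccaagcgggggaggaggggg
Klf4, chr4:55532476-55532725, minus strand: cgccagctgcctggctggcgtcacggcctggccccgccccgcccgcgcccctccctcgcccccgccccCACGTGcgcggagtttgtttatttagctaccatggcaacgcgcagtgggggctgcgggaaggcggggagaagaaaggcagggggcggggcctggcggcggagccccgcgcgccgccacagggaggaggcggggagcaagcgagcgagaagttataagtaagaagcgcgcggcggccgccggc
Klf9, chr19:23140976-23141225, plus strand: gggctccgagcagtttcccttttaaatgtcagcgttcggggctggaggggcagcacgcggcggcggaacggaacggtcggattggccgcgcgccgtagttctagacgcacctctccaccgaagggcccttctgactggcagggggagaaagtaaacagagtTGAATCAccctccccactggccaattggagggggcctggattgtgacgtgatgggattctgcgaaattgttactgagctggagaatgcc
The E-box began 43 bases before the start site in Klf6 and 182 bases before it in Klf4, and the AP-1 site began 89 bases before the start site in Klf9, where it overlaps a CACCC box. The CACCC box itself was found in 5 of the 7 promoters (57.5% of all promoters) and the GC box GGGCGG in 6 of the 7 (35.6%). The short CRE core TGACG was found in 5 of the 7 (20.8%) and the CCAAT box in 3 of the 7 (37.4%). The CACCC and GC boxes overlapped each other once in Klf3 and once in Klf13. A full CRE (TGACGTCA), a CArG box and a TATA box (TATAAA) were found in none of the 7, and 1.79%, 1.63% and 13.6% of all promoters held them. A match is only a string of letters, and no factor binding was measured.

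The line expressed most of the family, at very unequal levels. Levels are given in CPM (read counts scaled to a common library total), scaled by TMM over the 30 libraries, and 3′ counts do not scale with transcript length. The 17 Klf genes together received 111205 reads, and the 9 members held 97.7% of them. Klf9 (mean 357 CPM) and Klf3 (340.5 CPM) stood highest, followed by Klf7 (147 CPM), Klf6 (127 CPM), Klf13 (108 CPM), Klf2 (83.7 CPM), Klf4 (66.8 CPM) and Klf5 (58.5 CPM). Klf9 and Klf3 did not differ beyond their spread over the libraries (SD 58.3 and 58.4 CPM). Klf10 was the lowest member at 12.8 CPM, with 12 to 143 reads in a library, and lay below Klf16 (15.3 CPM), which is not a member. Klf11 (6.83 CPM) and Klf12 (6.45 CPM) came next. Klf8, Klf15 and Klf1 had 69, 43 and 25 reads in all, and Klf14 and Klf17 had 0 in 84273080 reads, so that only levels above about 3 reads in that total could have been seen.

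**Figure D1:**
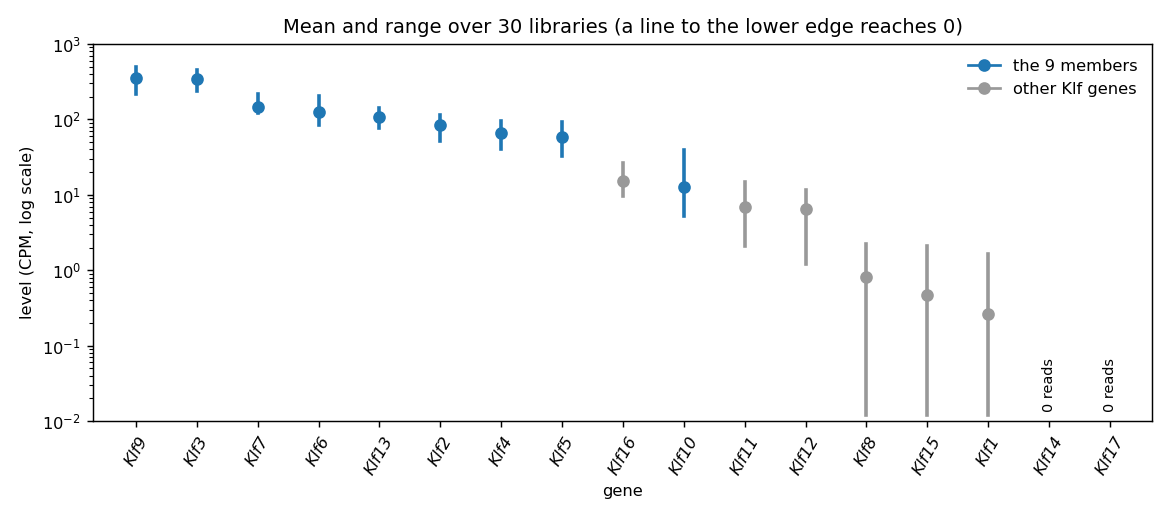
Mean level (point) and range (line) of the 17 Klf genes over 30 libraries, in CPM on a log axis, with the 9 members in blue and the others in grey. Klf9 and Klf3 sit highest at 357 and 340.5 CPM, Klf10 lies below Klf16, and Klf14 and Klf17 had 0 reads.

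The loci are given on GRCm38, an older build than the one the reads were aligned to. All are protein-coding genes. Klf2 lies at chr8:72319033-72321656 on the plus strand, Klf3 at chr5:64803388-64832901 on the plus strand and Klf4 at chr4:55527143-55532466 on the minus strand. Klf5 lies at chr14:99298691-99315036 on the plus strand, Klf6 at chr13:5861482-5870394 on the plus strand and Klf7 at chr1:64029447-64122282 on the minus strand. Klf9 lies at chr19:23141226-23168134 on the plus strand, Klf10 at chr15:38291463-38300706 on the minus strand and Klf13 at chr7:63886351-63938915 on the minus strand. Klf2, Klf4, Klf5, Klf6 and Klf10 overlap no other annotated gene. Klf3 overlaps the antisense gene Gm20033 (289 reads in all) and C230096K16Rik on its own strand (991 reads), and Klf7, Klf9 and Klf13 overlap further transcripts. How the counting treated strand is not given in the sources used here. Where Klf3, Klf7 and Klf13 overlap their antisense partners, reads may therefore not be told apart. Both genes that overlap Klf3 do so near its 5′ end, away from the 3′ end that these libraries read. Gm26649 lies at the 3′ end of Klf7. Gm13748, antisense to Klf7, received 0 reads, and the other antisense gene, Gm26649, is absent from the counts. Gm27252 and E030018B13Rik, antisense to Klf13, received 21 and 0 reads. C230096K16Rik lies on the strand of Klf3, so strand alone could not separate reads in their overlap.

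The libraries held 1839621 to 4420675 reads on genes (median 2641725), and 17.7% to 22.2% of the reads fell outside genes. No pair of libraries in a group was identical. The vehicle library of replicate 3 at 6 h stood apart from its partners. It had 3574833 reads on genes, against 1839621 and 1919498, and 17.9% of reads outside genes, against 21.4% and 20.8%. Its Klf7, Klf9 and Klf10 levels were the highest of the 30 libraries, and its Klf3, Klf5 and Klf13 levels were the lowest of its group. The comparison of the 4 doses with vehicle at 6 h is therefore also given without it. Of the cell type markers, the mesenchymal genes Col1a2, Col3a1, Acta2, Vim and Fn1 summed to 5751 to 8214 CPM in a library, while the 8 neuronal genes summed to 137 to 218 CPM. Most of this came from Tubb3 (mean 49.3 CPM), Nefm (40.7 CPM), Eno2 (37.4 CPM), Map2 (23.3 CPM) and Nefl (16.5 CPM), with Syt1 at 2.01 CPM and the defining markers Rbfox3 and Snap25 near 0 (means of 0.589 and 0.0406 CPM). The 5 hypothalamic peptide and patterning genes summed to at most 1.32 CPM, with Cartpt and Sim1 at 0 reads. The 5 glial genes summed to 3.76 to 31.1 CPM, nearly all of it Cx3cr1, with Aqp4 and Olig2 at 0 reads, and the 4 endothelial genes to at most 3.80 CPM. The labelled hypothalamic origin was thus not visible in the peptide and patterning genes.

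At 6 h Klf6 was lower in the CBD libraries than in vehicle at every dose, and it was the one member called when the 4 doses were set against vehicle. Klf6 is a broadly expressed activator known to induce the cell cycle inhibitor Cdkn1a. The vehicle libraries held 196, 204 and 200.5 CPM. The 0.325 µM libraries held 146, 123 and 139 CPM, and those at 0.75 µM held 170.3, 173 and 141 CPM. At 1.5 µM they held 139, 129 and 138 CPM, and at 3 µM 139, 154 and 114 CPM. All 12 CBD libraries lay below all 3 vehicle libraries. The group means stood at 68.1%, 80.8%, 67.6% and 67.8% of the vehicle mean in order of dose, so that the level did not step down with dose. With the 4 doses together, Klf6 fell by 0.50 on the log2 scale (SE 0.11, 95% interval -0.72 to -0.28, edgeR quasi-likelihood FDR = 0.0301), or by 29.3%. Called here means an FDR below 0.1, adjusted by Benjamini-Hochberg over the 12012 genes tested, of which 0.749% were called in this comparison. In bulk RNA, fewer cells that express a gene and less RNA per cell cannot be told apart.

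At the single doses, with 3 libraries against 3, no member was called by edgeR. The values for Klf6 were -0.56 at 0.325 µM (FDR 0.122), -0.31 at 0.75 µM (FDR 0.604), -0.57 at 1.5 µM (FDR 0.177) and -0.56 at 3 µM (FDR 0.155). Of all genes, 0.2%, 0.0749%, 0.0999% and 0.05% were called at these doses. DESeq2 called Klf6 at 0.325, 1.5 and 3 µM (FDR 0.0371, 0.0268 and 0.0396), where it called 71, 56 and 48 of all genes (0.591%, 0.466% and 0.4%), against 24, 12 and 6 by edgeR. At an unadjusted p below 0.05, 3, 1, 2 and 4 of the 9 members passed in order of dose, all lower, against 4.52%, 3.5%, 3.84% and 3.9% of all genes. The doses share their vehicle libraries, so these comparisons are not independent of each other.

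Of the other activators, none passed the test over the 4 doses at 6 h. Klf4, a pluripotency factor and a brake on proliferation in epithelia, held 94.0, 91.8 and 94.4 CPM in vehicle. Its CBD libraries ran from 51.7 to 90.4 CPM (median 75.2), so that here too all 12 lay below vehicle. The difference over the 4 doses was -0.35 (SE 0.13, edgeR FDR 0.307). Klf4 and Klf6 were the 2 members of 9 whose CBD libraries all lay below vehicle at 6 h, which held for 0.724% of all genes. The replicate spread of the 3 Klf4 vehicle libraries (SD 1.41 CPM) was small beside that of its 12 CBD libraries (SD 10.1 CPM).

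Klf5, which favours proliferation in epithelia and smooth muscle, held 89.0, 91.8 and 62.2 CPM in vehicle and 52.9 to 83.5 CPM (median 63.0) in the 12 CBD libraries. The groups overlapped through vehicle replicate 3, and the difference was -0.31 (SE 0.14, FDR 0.466). Klf7, known in neurons for axon outgrowth, held 155, 140.3 and 219 CPM in vehicle and 123 to 167 CPM (median 146) with CBD, a difference of -0.25 (SE 0.12, FDR 0.486). Here replicate 3 was the high library. Klf2, known for endothelial quiescence and its induction through ERK5 and MEF2, held 89.5, 75.2 and 112 CPM in vehicle and 52.5 to 115 CPM (median 95.7) with CBD. The difference in Klf2 was 0.00 (SE 0.18, 95% interval -0.36 to 0.36).

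Among the repressors, Klf10, first described as a TGF-beta-inducible gene, held 15.6, 12.8 and 39.7 CPM in vehicle at 6 h and 5.92 to 16.3 CPM (median 13.9) with CBD. The groups overlapped, and the high vehicle value was 1 library, replicate 3. The difference of -0.89 (SE 0.27, FDR 0.196) became -0.15 (SE 0.31, FDR 0.888) without that library. Klf9, a glucocorticoid- and thyroid hormone-responsive gene, held 313, 319.6 and 501 CPM in vehicle and 297 to 461 CPM (median 390.0) with CBD. Its difference was 0.03 (SE 0.13, FDR 0.974). Klf3 held 448, 415 and 264 CPM in vehicle and 299 to 448 CPM (median 352) with CBD, and Klf13 held 141, 134 and 97.7 CPM in vehicle and 95.6 to 134 CPM (median 115) with CBD. Their differences were -0.05 (SE 0.13) for Klf3 and -0.11 (SE 0.13) for Klf13. None of the 4 repressors separated from vehicle.

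Counted together at 6 h, 7 of the 9 members had a value below 0 over the 4 doses, against 53.5% of all genes. The members' median was -0.25, against -0.02 for all genes tested. At an unadjusted p below 0.05, 4 of 9 members passed, all of them lower (Klf4, Klf5, Klf6 and Klf10), and 5.39% of all genes did so in that direction. Without vehicle replicate 3, Klf6 stayed at -0.50 (FDR 0.0376) and Klf4 at -0.33 (FDR 0.334), while Klf5 moved to -0.47 (FDR 0.128), Klf7 to -0.03 (FDR 0.959), Klf9 to 0.29 (FDR 0.295) and Klf3 to -0.25 (FDR 0.408). Klf2 moved to 0.18 (FDR 0.707) and Klf13 to -0.26 (FDR 0.418). Without that library 2.47% of all genes were called. Klf6 was called in 14 of the 15 fits that left out 1 library. The exception was vehicle replicate 2, without which the value was -0.48 (FDR 0.149).

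**Figure D2:**
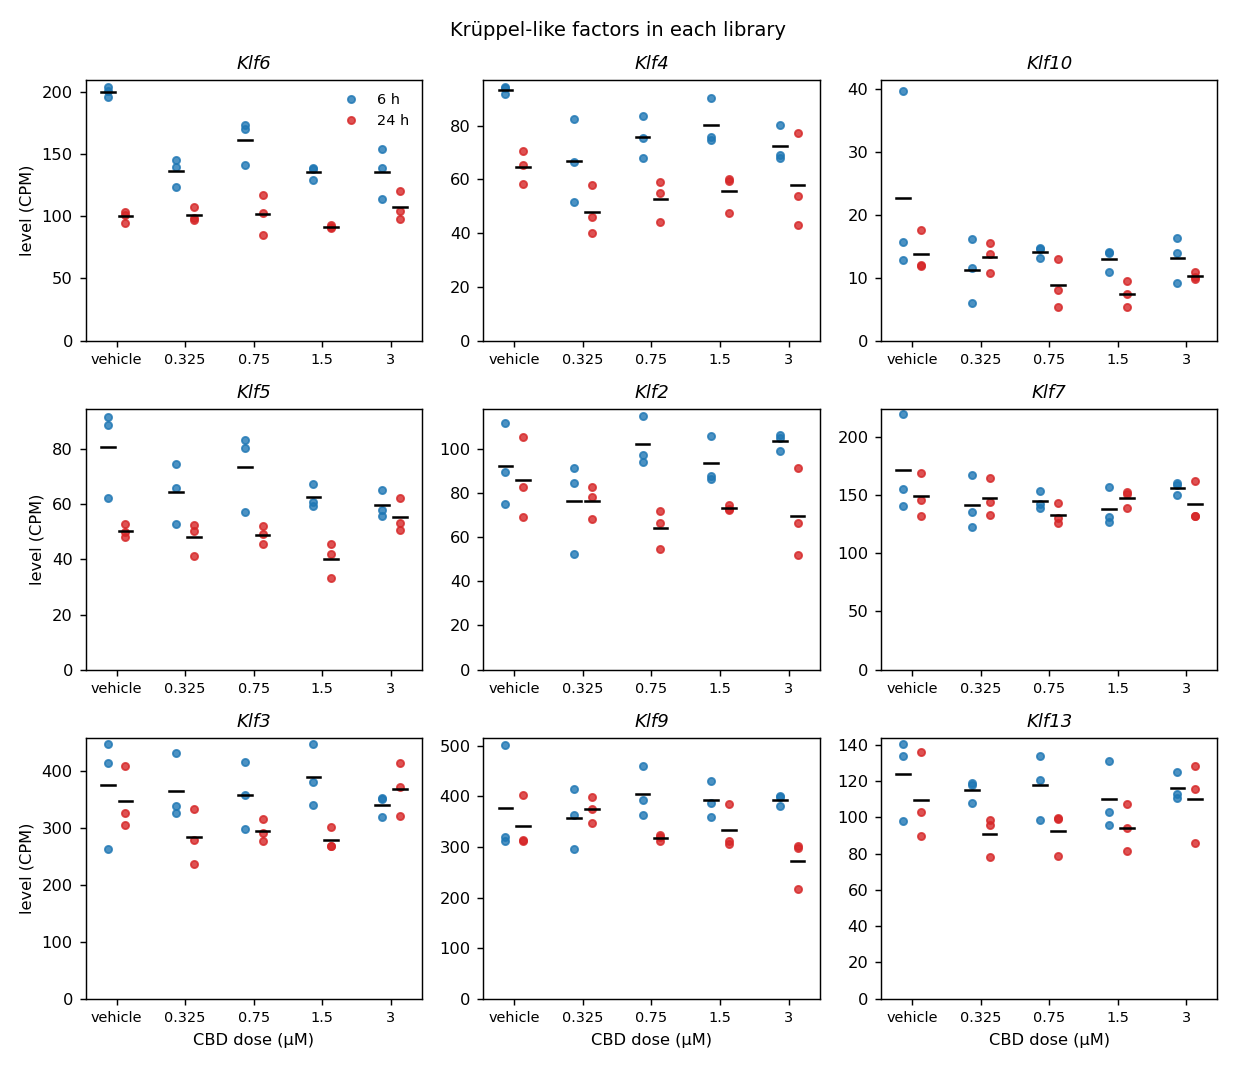
Level of each member in each of the 30 libraries (points, in CPM, axes from 0) against CBD dose in µM, at 6 h (blue) and 24 h (red), with black bars for group means (n = 3). At 6 h the Klf6 vehicle libraries lie at 196 to 204 CPM and its CBD libraries at 114 to 173 CPM, and the single high Klf10 vehicle library at 39.7 CPM stands alone.

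**Figure D3:**
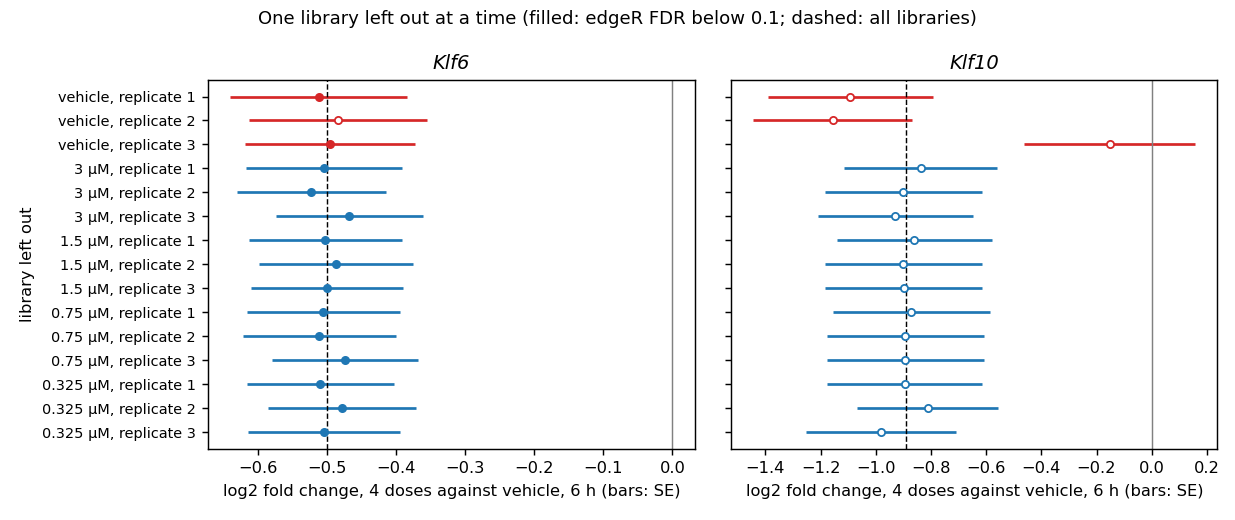
Log2 fold change of Klf6 and Klf10 at 6 h, 4 doses against vehicle, with each of the 15 libraries left out in turn (rows; vehicle in red, CBD in blue; bars are SE; filled points have an edgeR FDR below 0.1). Klf6 stays near -0.50 throughout, whereas Klf10 moves from -0.89 to -0.15 without vehicle replicate 3.

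At 24 h no member was called against vehicle at any dose or with the 4 doses together. The vehicle libraries of Klf6 held 101, 104 and 94.3 CPM and the 12 CBD libraries 84.7 to 120.5 CPM (median 98.2), so that they overlapped fully. The difference was -0.00 (SE 0.10, 95% interval -0.21 to 0.21). The interval does not reach the -0.50 seen at 6 h, which has an interval of its own (-0.72 to -0.28). The direct test between the times, given below, did not call Klf6 (edgeR FDR 0.251). All 9 members had values below 0 over the 4 doses, against 51.4% of all genes, with a median of -0.19 against -0.01. In a fit adjusted for the share of reads outside genes, Klf4 (0.07), Klf9 (0.05), Klf6 (0.01) and Klf7 (0.00) turned above 0 and Klf10 stood at -0.12, and Klf6, Klf7 and Klf9 also turned above 0 in at least 1 fit that left out a library. The lowest FDR was 0.727, for Klf2, and 0.107% of all genes were called. At an unadjusted p below 0.05, Klf2 and Klf10 passed, both lower, against 3.7% of all genes.

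Of the activators at 24 h, Klf2 held 106, 82.5 and 69.3 CPM in vehicle and 51.7 to 91.2 CPM (median 72.1) with CBD, a difference of -0.29 (SE 0.13). Klf4 held 58.5, 70.6 and 65.3 CPM in vehicle and 39.9 to 77.2 CPM (median 54.4) with CBD, a difference of -0.28 (SE 0.14, FDR 0.759). For Klf4, 8 of the 12 CBD libraries lay below the lowest vehicle library and 1 lay above the highest. How many of all genes reached such a count was not taken. Klf5 (-0.07, SE 0.12) and Klf7 (-0.07, SE 0.10) overlapped vehicle.

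Of the repressors at 24 h, Klf10 held 11.9, 11.9 and 17.5 CPM in vehicle and 5.27 to 15.5 CPM (median 9.89) with CBD. The difference was -0.50 (SE 0.24, FDR 0.729), and 9 of the 12 CBD libraries lay below the lowest vehicle library. Here too the share of all genes with such a count was not taken. The lowest group mean was at 1.5 µM, with 5.30, 9.52 and 7.42 CPM in its libraries. Klf3 (-0.19, SE 0.10), Klf13 (-0.19, SE 0.13) and Klf9 (-0.09, SE 0.10) did not pass. Of all genes, 0.066%, 0.0825%, 0.0413% and 0.00825% were called at the single doses, in order of dose, and the lowest FDR of a member was between 0.511 and 0.560.

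Whether the CBD difference changed between 6 and 24 h was tested in 1 fit over the 30 libraries. No member was called, and 0.235% of all genes were. Klf6 came nearest, with a change of 0.50 (SE 0.15, edgeR FDR 0.251). Klf10 changed by 0.39 (SE 0.38), Klf5 by 0.24 (SE 0.19) and Klf2 by -0.29 (SE 0.21), and none of these passed.

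**Figure D4:**
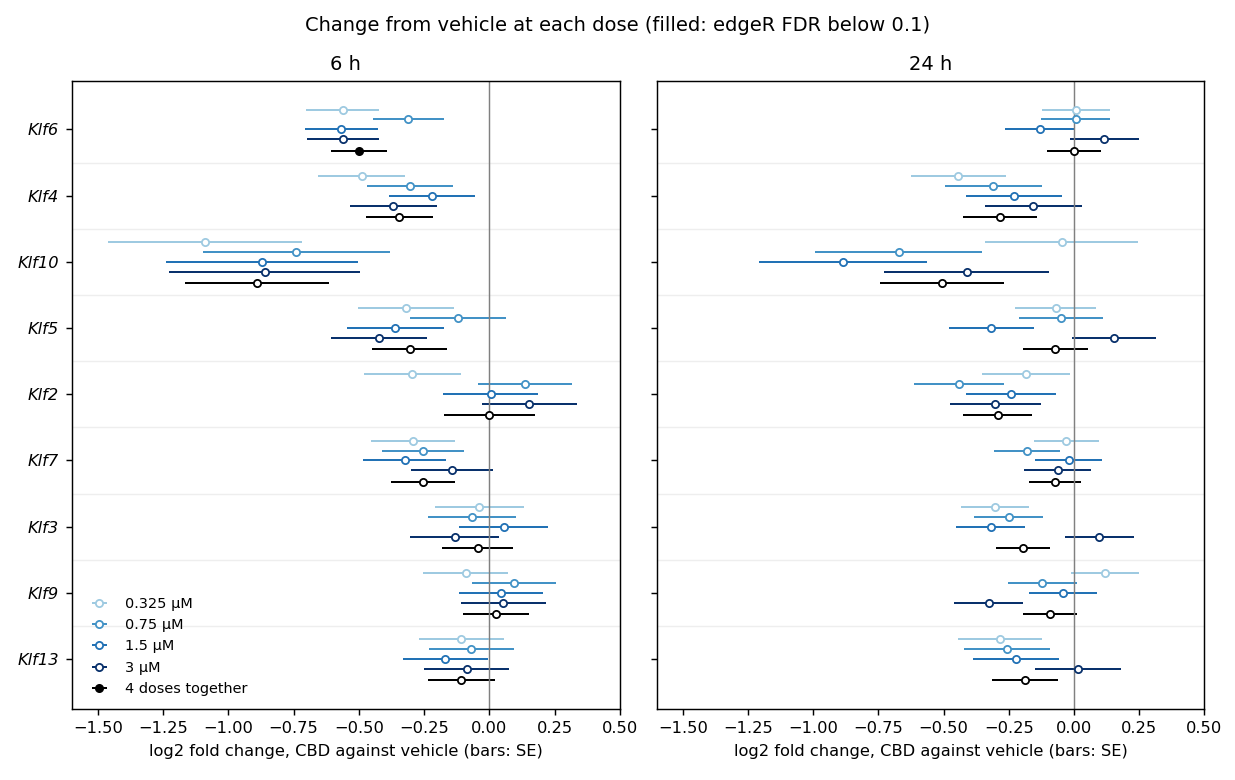
Log2 fold change against vehicle (bars are SE) of each member at the 4 doses (blue shades) and over the 4 doses together (black), at 6 h (left) and 24 h (right). The single filled point, with an FDR below 0.1, is Klf6 over the 4 doses at 6 h.

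The 3 µM group at 24 h was also set against the 3 lower doses, and here Klf3 was higher and Klf9 lower at 3 µM. Klf3, the CtBP-recruiting repressor, held 373, 321 and 414 CPM at 3 µM. The lower-dose libraries held 238, 279.7 and 334 CPM at 0.325 µM, 291, 316 and 278 CPM at 0.75 µM and 268, 302 and 269 CPM at 1.5 µM. A single lower-dose library reached into the 3 µM range. The difference was 0.39 (SE 0.11, edgeR FDR 0.0321), while the vehicle libraries (306, 409 and 327 CPM) overlapped those at 3 µM. Against vehicle, Klf3 stood at -0.30, -0.25 and -0.32 at the 3 lower doses, in order of dose. It was called at none of them (edgeR FDR 0.551, 0.692 and 0.600). The call at 3 µM therefore does not show a rise above vehicle.

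Klf9 held 217, 301 and 298 CPM at 3 µM, against 348, 399 and 376 CPM at 0.325 µM, 323, 320.2 and 312 CPM at 0.75 µM and 386, 305 and 312 CPM at 1.5 µM. All 3 libraries lay below the 9 lower-dose ones, and 1 of them, at 217 CPM, lay far below. The share of all genes that separated in this way was not counted. Klf9 was lower by 0.31 on the log2 scale than at the lower doses (SE 0.11, edgeR FDR 0.0899). Against vehicle at 24 h, the 3 µM values were 0.10 (SE 0.13, FDR 0.842) for Klf3 and -0.33 (SE 0.13, FDR 0.511) for Klf9. Of all genes, 10.5% were called in the comparison of 3 µM with the lower doses, a share that 1 called gene among 9 members would already reach, against the 2 found.

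Both calls were lost when single libraries were left out, that of Klf3 in 2 of 15 such fits and that of Klf9 in 7 of 15, and both were lost in the fit adjusted for the outside-gene read share. Without replicate 1 at 3 µM, Klf3 stood at 0.37 (FDR 0.175) and Klf9 at -0.18 (FDR 0.530). Without replicate 3 they stood at 0.29 (FDR 0.223) and -0.39 (FDR 0.120). The share of reads outside genes was 21.4% (SD 0.487, n = 3) at 3 µM, 19.4% to 19.7% at the lower doses and 21.4% (SD 0.714, n = 3) in vehicle. With that share as a covariate the values were 0.37 for Klf3 (FDR 0.507) and -0.52 for Klf9 (FDR 0.323), and 30 of all genes (0.248%) were called, against 1275. The part of that share in the result was not tested further. Of the markers, 1 of 5 neuronal genes tested (Nefm) and the glial gene Cx3cr1 were also higher at 3 µM, by 0.93 (FDR 0.0191) and 0.95 (FDR 0.0657). The summed neuronal level was 173 to 218 CPM at 3 µM and 137 to 171 CPM at the lower doses, and the summed mesenchymal level 5751 to 6723 CPM against 6368 to 7550 CPM.

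The remaining members did not pass in this comparison. Klf5 (0.30, SE 0.13, FDR 0.18), Klf13 (0.27, SE 0.13, FDR 0.245), Klf4 (0.17, SE 0.15) and Klf6 (0.16, SE 0.11) lay above 0, and Klf2, Klf7 and Klf10 lay between -0.01 and 0.12. At 6 h the same comparison called 0 of 9 members and, by edgeR, 0% of all genes. At an unadjusted p below 0.05, 624 genes (5.19%) passed there and no member did.

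In vehicle alone, Klf6, Klf5, Klf4 and Klf10 were lower at 24 h than at 6 h. Klf6 fell from 196, 204 and 200.5 CPM to 101, 104 and 94.3 CPM, a fall of 50.1% (95% interval of the log2 difference -1.27 to -0.74, SE 0.13, edgeR FDR 1.26e-06). Klf5 went from 89.0, 91.8 and 62.2 CPM to 48.2, 52.7 and 49.8 CPM, a difference of -0.67 (SE 0.17, FDR 0.00407). Klf4 went from 94.0, 91.8 and 94.4 CPM to 58.5, 70.6 and 65.3 CPM, a difference of -0.53 (SE 0.18, FDR 0.0292). In each of these 3 genes the 24 h libraries lay below all 6 h libraries, as they did in 15.9% of all genes.

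Klf10 passed narrowly in this comparison, at -0.79 (SE 0.34, FDR 0.0931), and its groups overlapped. Without the vehicle library of replicate 3 at 6 h its value was -0.03 (FDR 0.964), and its call was lost in 21 of the 30 fits that left out 1 library. Of 7 other settings, 3 called it. DESeq2 gave an FDR of 0.109, the fit without a filter 0.125 and the fit to the 2 vehicle groups alone 0.191, and adjusting for the outside-gene read share gave -0.42 (FDR 0.484). Klf4 lost its call in 1 such fit, without vehicle replicate 1 at 24 h (-0.44, FDR 0.146). Klf6 and Klf5 kept theirs in all 30. Klf7 (-0.21), Klf13 (-0.17), Klf9 (-0.15), Klf2 (-0.11) and Klf3 (-0.11) did not pass. The called members were 4 of 9, all lower, against 26.7% of all genes in either direction and 14.2% lower.

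The level of Klf6 was also lower at 24 h under CBD, where 10 of the 12 libraries at 24 h lay below the lowest at 6 h, and the same count held for Klf5. The counts of the other members ran from 0 (Klf7) to 6 (Klf3 and Klf13). The share of all genes with such counts was not taken, and the times were not tested against each other within CBD. Time in culture and treatment time cannot be told apart in these groups. The cell type markers moved between the times in vehicle as well. Map2 was higher by 1.09 and Nefl and Nefm lower (-1.37 and -1.12), Cx3cr1 was lower (-1.04), Col3a1, Col1a2 and Fn1 were higher (0.82, 0.40 and 0.31) and Vim was lower (-0.41), and their part in the members' differences was not tested. The summed neuronal level was 167 to 218 CPM at 6 h and 161 to 166 CPM at 24 h in vehicle, and the mesenchymal level 6706 to 7427 CPM and 6626 to 7566 CPM.

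**Figure D5:**
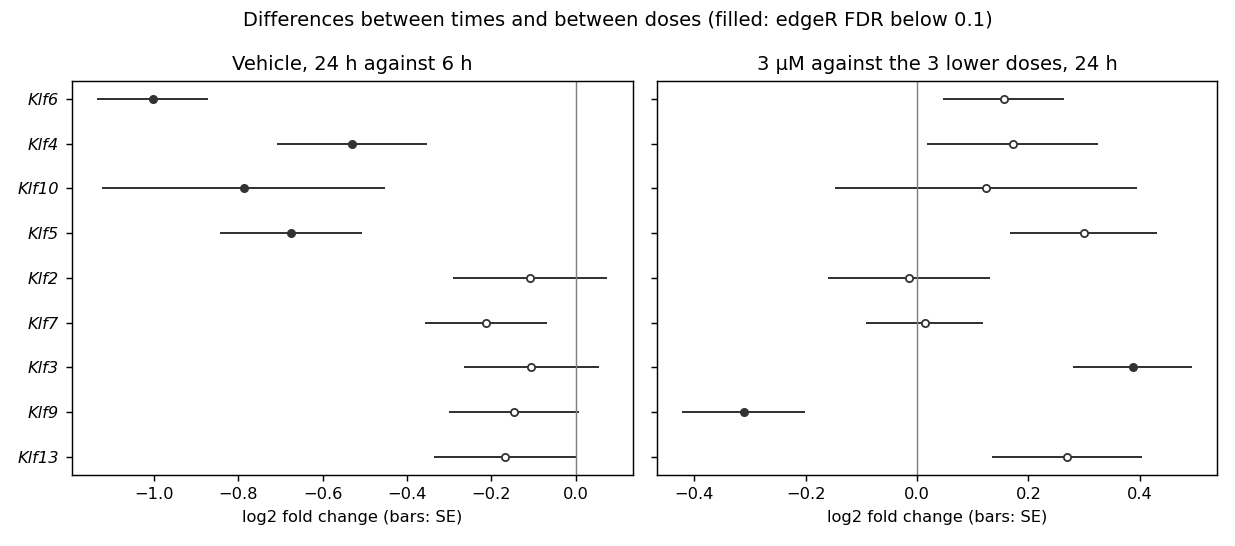
Log2 fold change (bars are SE; filled points have an edgeR FDR below 0.1) of the 9 members between vehicle at 24 and 6 h (left) and between 3 µM and the 3 lower doses at 24 h (right). On the left Klf6 lies lowest, followed by Klf10 at -0.79, Klf5 at -0.67 and Klf4 at -0.53, and on the right Klf3 lies at 0.39 and Klf9 at -0.31.

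Genes around the family were followed as lists, chosen like the members with earlier results known. Of the 8 other Klf genes, 3 passed the filter on low counts, and none was called at 6 h over the 4 doses. Klf16 had the smallest p (-0.54, SE 0.22, FDR 0.371) and was lower in vehicle at 24 h than at 6 h (-0.80, FDR 0.0367). Of the 9 Sp genes, which share the zinc fingers and the GC box, 3 passed the filter and none was called, with Sp1 at -0.12, Sp4 at -0.33 and Sp3 at -0.07. None of 12 cofactors was called with the 4 doses against vehicle at 6 h or 24 h. In vehicle, 1 of them was called higher and 2 lower at 24 h than at 6 h. Sin3a, the partner of Klf9, Klf10 and Klf13, stood at 0.24 (SE 0.16) and the corepressor gene Ctbp2 at -0.15 (SE 0.16) at 6 h.

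Further lists held genes of the ERK5-MEF2, TGF-beta and glucocorticoid pathways. None of 6 genes of the ERK5 and MEF2 route to Klf2 and Klf4 was called at 6 h (Mef2d -0.30, Map2k5 0.18, Mef2c 0.24). None of 9 TGF-beta and SMAD genes was called either, with Smad3 at -0.38 (SE 0.13, FDR 0.263). Of 6 genes tested in the glucocorticoid list, which holds the receptor gene itself, 1 was called lower at 6 h, against 0.508% of all genes. This was Dusp1, a phosphatase that switches off MAP kinases (-0.90, SE 0.18, FDR 0.0169). Without vehicle replicate 3, Dusp1 stood at -0.69 (FDR 0.0784). Sgk1 stood at -0.45 (FDR 0.162), and at -0.17 without vehicle replicate 3. Tsc22d3 (0.10) and Per1 (0.06), which respond to the hormone along with Klf9, did not pass either. With the 4 doses set against vehicle at 24 h, Dusp1 was the sole called gene of these 8 lists. It was higher (0.86, SE 0.15, FDR 0.0173). At 3 µM against the 3 lower doses at 24 h, the ERK5-MEF2, TGF-beta and glucocorticoid lists each had 1 gene called lower. Of all genes, 4.16% were called lower there. Between the vehicle groups, 2 ERK5-MEF2 genes were called higher and 1 lower at 24 h. In that comparison 1 TGF-beta gene was called higher and 2 lower, and 2 glucocorticoid genes were called lower. The shares of all genes were 12.5% higher and 14.2% lower.

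The immediate early genes, which are induced by growth factors as several members are, were the list with most calls at 6 h. Of 14 tested, 7 were called lower and none higher, against 0.508% of all genes called lower. All 14 lay below 0 (median -0.64), against 53.5% of all genes (median -0.02). Fosb was lower by 1.30 on the log2 scale (SE 0.24, FDR 0.00995), from 23.9 to 26.7 CPM in vehicle to 4.38 to 15.9 CPM with CBD. Junb stood at -0.67 (SE 0.13, FDR 0.0161), Nr4a1 at -1.14 (SE 0.23, FDR 0.0205) and Egr1 at -0.65 (SE 0.15, FDR 0.0437). Without vehicle replicate 3, Egr1 stood at -0.27 (FDR 0.385) and Nr4a1 at -0.80 (FDR 0.144), so that both calls were lost, while Fosb (-1.32, FDR 0.0143) and Junb (-0.47, FDR 0.0939) were still called. Of the 14, 5 were then called lower, 4 of them among the former 7, against 1.7% of all genes in that direction. With the 4 doses against vehicle at 24 h none of 13 was called. At 3 µM against the 3 lower doses at 24 h, 1 was called higher and 1 lower, against 10.5% of all genes. Between the vehicle groups all 14 lay below 0, against 51.9% of all genes. Of them, 9 were called lower at 24 h, against 14.2% of all genes.

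Genes known as targets of the members were followed as well. Of 8 tested at 6 h, 1 was called, the cell cycle inhibitor Cdkn1a (-0.48, SE 0.10, FDR 0.0169), against 0.508% of all genes called lower. Its vehicle libraries held 579 to 639 CPM and its 12 CBD libraries 376 to 482 CPM, without overlap, as in 0.724% of all genes. Without vehicle replicate 3 the value was -0.53 (FDR 0.00739). Ccnd1 (-0.26, SE 0.15), Thbd (-0.38, SE 0.20) and S1pr1 (-0.46, SE 0.23) did not pass, and without that library Thbd and S1pr1 stood at 0.25 and 0.30. With the 4 doses against vehicle at 24 h none was called, and Cdkn1a stood at -0.06 (SE 0.10). At 3 µM against the 3 lower doses at 24 h, 1 of the 8 was called higher and 1 lower, against 10.5% of all genes. Between the vehicle groups, 1 of the 8 was called higher and 2 lower at 24 h, against 26.7% of all genes.

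Likeness of pattern was measured as Pearson's r of log2(CPM + 1) over the 30 libraries after the mean of each time point was subtracted, against 12789 genes. The libraries share depth and preparation, so these values are a description. Klf6 was most like Ereg (r = 0.74), Ifi203 (0.72) and Dclre1c (0.70). Klf4 was most like Gdf15 (0.72), Bbs4 (0.69) and Ddx39b (0.67), and Klf5 most like Gm11510 (0.69), Otud3 (0.65) and Gm49208 (0.64). Klf2 followed Nudcd2 (0.81), Plau (0.78) and Pcdh19 (0.76), and Klf7 followed Bcar1 (0.81), Rragc (0.78) and Atg3 (0.78). The highest values belonged to Klf3, with Ptma (0.92), Ccnd2 (0.92) and Sub1 (0.91), and to Klf9, with Col8a1 (0.88), F2r (0.85) and Cttn (0.83). Klf13 also had Ptma among its nearest genes (0.82), beside Ak6 (0.84) and Snord13 (0.83). Klf10 was nearest to Cox5a (0.74), Hnrnpf (0.71) and Tnfrsf12a (0.69).

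Within the family, Klf3 and Klf13 were the most alike pair of the 36 (r = 0.78), followed by Klf2 and Klf9 (0.69). Klf3 and Klf9 ran against each other (-0.53), and so did Klf3 and Klf7 (-0.47). Klf4 and Klf6, the members whose CBD libraries all lay below vehicle at 6 h, had an r of 0.29. The spread between replicates, as edgeR's biological coefficient of variation, was 0.118 for Klf6 and 0.284 for Klf10 at 6 h, the lowest and the highest of the 9.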

How the data were processed

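Poly(A) RNA of 30 libraries was sequenced by QuantSeq 3′ mRNA-Seq. The authors trimmed the reads, aligned them with STAR 2.7.5c and deposited raw counts per Ensembl gene from HTSeq 1.99.2, with no normalization. DESeq2 3.16 and FastQC 0.11.9 are also named in the submitters' processing notes. The rows for reads outside genes were left out of library sizes and tests.

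Gene symbols and loci came from a GRCm38 annotation and named 51948 of 56941 genes. Counts were tested with edgeR 4.0.16 (R 4.3.3, limma 3.58.1) by quasi-likelihood F-tests, with filterByExpr, TMM factors and 1 mean per group. The fits used the 15 libraries of a time point (12012 genes at 6 h, 12118 at 24 h), or all 30 for comparisons across times (12790). Benjamini-Hochberg FDR was taken over all genes tested, with 0.1 as threshold. SE is the log2 fold change divided by the root of F. The fitting code was tested on simulated data.

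The members, the lists and the rule for named genes were chosen with earlier results of these data known. That rule took all 9 members, at most 4 genes a list by smallest p over the 4 doses against vehicle, and the 3 genes most like each member. Alternatives were DESeq2 1.42.0, RLE factors, no filter on low counts, at least 10 reads in every library, no mitochondrial genes, the share of reads outside genes as covariate, only the groups compared, and each library left out in turn.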

Additional observations from a re-analysis of the deposited data

How the results depend on the processing

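No paired analysis was possible because the labels give no replicate numbers shared between groups. At 6 h, DESeq2 and the fit adjusted for the outside-gene read share called 1 and 2 members at 0.325 µM, 1 and 1 at 1.5 µM and 1 and 1 at 3 µM, against 0 in edgeR, Klf6 each time and Klf10 with it at 0.325 µM. Over all genes these fits called 71 and 322, 56 and 154, and 48 and 79, against 24, 12 and 6. For the 4 doses at 6 h, the adjusted fit and the fit without a filter called 2 members each (Klf6 and Klf10), against 1. Leaving out 1 library gave 0 to 1 members there, and 0 to 1 at 3 µM at 6 h. For 3 µM against the lower doses at 24 h the adjusted fit called 0, and leaving out 1 library gave 0 to 3 members, against 2. Between the vehicle groups, leaving out 1 library gave 2 to 4 members, against 4. The cause of these changes was not tested, and no called value changed sign.

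Counts over all genes moved more. For the 4 doses at 6 h they ran from 51 to 304 without 1 library and from 66 to 329 under the other settings, against 90. For 3 µM against the lower doses at 24 h they ran from 68 to 2303 and from 30 to 1326, against 1275. For the vehicle groups they ran from 2424 to 3563 and from 2416 to 3499, against 3411. For the change of the CBD difference between times they ran from 2 to 45 and from 25 to 87, against 30. At single doses at 6 h the counts of 24, 9, 12 and 6 genes, in order of dose, rose to at most 322, 173, 154 and 135, and at 24 h those of 8, 10, 5 and 1 to at most 79, 102, 44 and 288. With the 4 doses at 24 h the count of 13 lay between 0 and 47. For 3 µM against the lower doses at 6 h the count of 0 rose to at most 2. Klf10, with 12 to 143 reads in a library, is the member that depth limits most.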
